A study of Mus musculus with 8 samples.

Results

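Claudins and their partners build the tight junction, the seal near the apical edge of epithelial cells. The 9 genes described here were chosen by name: Cldn1, Cldn3, Cldn4, Cldn7, Cldn8 and Cldn12 of the claudin family, Ocln (occludin), Tjp1 (the scaffold ZO-1) and F11r (the adhesion molecule JAM-A). They are 9 of the 18194 genes with a value, and they carry 18 of the 45101 probe sets on the array. For each gene the probe set with the highest mean over all arrays gives the values below, and the others serve as a check.

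The arrays measured RNA from mammary epithelial cells that were sorted by flow cytometry into 2 lineage-negative (LIN-) fractions, each from 2 genotypes. The 4 groups are CD24hiCD29lo cells of germline C/EBPb-/- knockout mice (KO CD29lo), CD24hiCD29lo cells of wildtype mice (WT CD29lo), CD24+CD29hi cells of knockout mice (KO CD29hi) and CD24+CD29hi cells of wildtype mice (WT CD29hi). Each group has 2 arrays labelled as biological replicates. The labels speak of 2 paired sets of glands with 10 mice per group. Cebpb encodes a leucine zipper transcription factor of the mammary epithelium, and the knockout removes it from every cell of the body, not from the mammary epithelium alone. Age, strain, sort purity, the deleted stretch of Cebpb and which mice contributed to which array are not stated in the labels. P-values therefore measure the spread between these arrays.

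As a check of the labels, Cebpb measured 9.23 and 8.89 in KO CD29lo arrays, against 11.83 and 12.18 in WT CD29lo arrays, and 8.60 and 9.38 in KO CD29hi arrays, against 11.95 and 12.25 in WT CD29hi arrays, on the log2 scale of the deposited values. All 4 KO arrays lay below all 4 WT arrays, with KO minus WT differences of -2.95 in CD29lo (limma adjusted p = 0.0271) and -3.11 in CD29hi (limma adjusted p = 0.0177), yet Cebpb stayed above background in each KO array. The CD29 gates matched their usual lineages: all 10 basal myoepithelial markers (among them Krt5, Krt14, Acta2 and Trp63) were lower in CD29lo than in CD29hi arrays, and all 12 luminal markers with a value were higher. Summed linear levels of the luminal markers were 29400 to 34180 in KO CD29lo and 30410 to 31080 in WT CD29lo arrays. In CD29hi arrays they were 12070 to 12770 in KO and 13140 to 13350 in WT. Those of the basal markers were 1602 to 2470 in KO CD29lo and 1889 to 1973 in WT CD29lo arrays. In CD29hi arrays they were 37600 to 42400 in KO and 41180 to 48860 in WT. CD29hi arrays thus kept luminal marker RNA, and its cell source was not tested. Fibroblast markers were also present in the CD29lo sorts, and 9 of 10 were higher there. Their summed linear level was 3619 and 24310 in the KO CD29lo arrays and 11350 and 32650 in the WT CD29lo arrays, against 882.6 to 1864 in KO CD29hi arrays and 888.9 to 1989 in WT CD29hi arrays. No endothelial marker of 10 and no blood marker of the 4 tested was called between the gates. The second principal component held 13.64% of the variance. Along it replicate 1 of KO CD29lo (64.6) and replicate 2 of WT CD29lo (-56.19) lay at opposite ends. The other CD29lo arrays lay between them, at 8.296 (WT replicate 1) and -17.73 (KO replicate 2). This order of the CD29lo arrays is the reverse of that of their summed fibroblast level, and a link was not tested.

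Claudins span the membrane and pair with claudins of the neighbouring cell, and the mix of family members sets which ions and solutes pass between cells. Occludin and F11r sit in the same contact, and ZO-1 binds their tails on the cytoplasmic side and ties them to actin. In the mammary gland the luminal cells, which line the ducts and alveoli, carry the tight junctions that close around the onset of lactation, while the basal myoepithelial cells lie outside that seal.

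The promoters of 8 of the 9 genes were found among RefSeq sequences of the mouse genome build GRCm38.p6, as windows of 300 bases from 250 before to 50 after an annotated start, and Cldn8 had no entry. A single window is shown for each of Cldn3, Cldn4, Cldn7 and Ocln, which rose together in the CD29lo gate, and for Cldn12, which fell. Windows of Cldn1, which also rose, of Tjp1 and of F11r are not printed. Further windows of Cldn7, Cldn12 and Ocln are not printed either. Capitals mark the letters CAGGTG or their reverse complement CACCTG. This is the E-box bound by SNAI and ZEB repressors, and it is a special case of the wider E-box CANNTG. Each is written 5' to 3' on the strand of the gene: Cldn3 is chr5:134985964-134986263 on the plus strand, Cldn4 is chr5:134946885-134947184 on the minus strand, Cldn7 is chr11:69965171-69965470 on the plus strand, Ocln is chr13:100552449-100552748 on the minus strand, and Cldn12 is chr5:5514740-5515039 on the minus strand.
Cldn3: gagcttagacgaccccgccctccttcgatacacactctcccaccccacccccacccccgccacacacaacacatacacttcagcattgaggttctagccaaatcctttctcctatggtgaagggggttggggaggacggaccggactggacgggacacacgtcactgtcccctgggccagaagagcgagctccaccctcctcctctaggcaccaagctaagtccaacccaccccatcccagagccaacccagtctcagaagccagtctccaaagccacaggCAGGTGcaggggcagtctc
Cldn4: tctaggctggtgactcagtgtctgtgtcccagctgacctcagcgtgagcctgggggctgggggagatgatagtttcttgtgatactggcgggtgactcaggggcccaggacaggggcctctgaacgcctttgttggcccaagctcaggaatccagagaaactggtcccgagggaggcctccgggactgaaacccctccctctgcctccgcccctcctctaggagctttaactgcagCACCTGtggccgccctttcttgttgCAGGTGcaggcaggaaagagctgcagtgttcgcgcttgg
Cldn7: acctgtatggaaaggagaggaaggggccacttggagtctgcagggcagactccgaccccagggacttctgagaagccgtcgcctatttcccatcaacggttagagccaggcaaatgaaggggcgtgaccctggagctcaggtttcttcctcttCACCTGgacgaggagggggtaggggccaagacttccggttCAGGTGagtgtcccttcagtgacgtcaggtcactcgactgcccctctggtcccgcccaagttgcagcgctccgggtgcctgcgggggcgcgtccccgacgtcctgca
Ocln: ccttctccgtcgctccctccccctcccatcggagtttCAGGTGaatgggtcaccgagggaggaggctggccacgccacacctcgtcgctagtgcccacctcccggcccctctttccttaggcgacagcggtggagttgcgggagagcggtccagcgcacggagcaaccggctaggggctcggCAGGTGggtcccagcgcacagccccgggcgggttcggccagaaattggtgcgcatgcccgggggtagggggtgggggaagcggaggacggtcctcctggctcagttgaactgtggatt
Cldn12: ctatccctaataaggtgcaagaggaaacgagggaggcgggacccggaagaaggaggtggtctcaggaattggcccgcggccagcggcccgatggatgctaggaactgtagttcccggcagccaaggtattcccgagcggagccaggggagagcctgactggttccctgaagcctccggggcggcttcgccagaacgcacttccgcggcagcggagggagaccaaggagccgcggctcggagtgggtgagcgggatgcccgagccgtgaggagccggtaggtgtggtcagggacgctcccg

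CAGGTG on either strand was found in the windows of Cldn3, Cldn4, Cldn7, Ocln and F11r, which are 5 of the 8 genes with a window, and in 22.6% of the 27025 genes with a RefSeq promoter. It was not found in the windows of Cldn1, Cldn12 or Tjp1. Of the 12 windows of these genes, 6 held it, and Cldn7 has another window, chr11:69964529-69964828 on the plus strand, with neither CAGGTG nor CANNTG. In Cldn4 the letters began 14 bases before the start and again 12 bases after it, in Cldn7 97 and 57 bases before it, and in the Ocln window shown 213 and 68 bases before it. Cldn3 held a single copy that began 32 bases after its start. The wider CANNTG was present in 6 of the 8 genes, against 75.0% of all genes. Neither AACNGGTT, a grainyhead motif, nor TTGCNNAA, a C/EBP motif, was found in a window of the 9 genes on either strand, and 2.35% and 12.2% of all genes held them. Windows of these genes with CAGGTG held 60.3% to 68.0% G and C, and those without it 45.3% to 66.3%. The median over all promoters was 52.7%, and the shares over all genes were not matched for this content. Cldn3 and Cldn4 are neighbours on chromosome 5 with 0 protein-coding genes between them. These matches describe letters in the windows and are not evidence of binding, and no match says only that the letters are not in that window.

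Between the gates, 6 of the 9 genes were higher in CD29lo than in CD29hi cells when both genotypes were averaged (limma adjusted p under 0.05 over 14598 genes), and 1, Cldn12, was lower. Of all tested genes 10.8% were called higher and 12.2% lower in that comparison. Every CD29lo array lay above every CD29hi array for these 6 genes and below for Cldn12, and 12.1% and 13.2% of all tested genes did so. The median log2 difference of the 9 genes was 2.98, against -0.01 for all tested genes. The 9 genes were chosen with earlier results of these data known, so the contrast with all tested genes does not test the set. Cldn3, Cldn4, Cldn7 and Ocln stood between 7.88-fold and 13.4-fold higher in CD29lo cells, and Cldn1 stood 3.24-fold higher. Cldn8 stood 19.4-fold higher with values raised to the background of their array, which some of its CD29hi values did not reach. Tjp1 and F11r did not pass the test. In such sorted bulk samples, fewer cells of a type and less RNA per cell cannot be told apart.

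**Figure D1:**
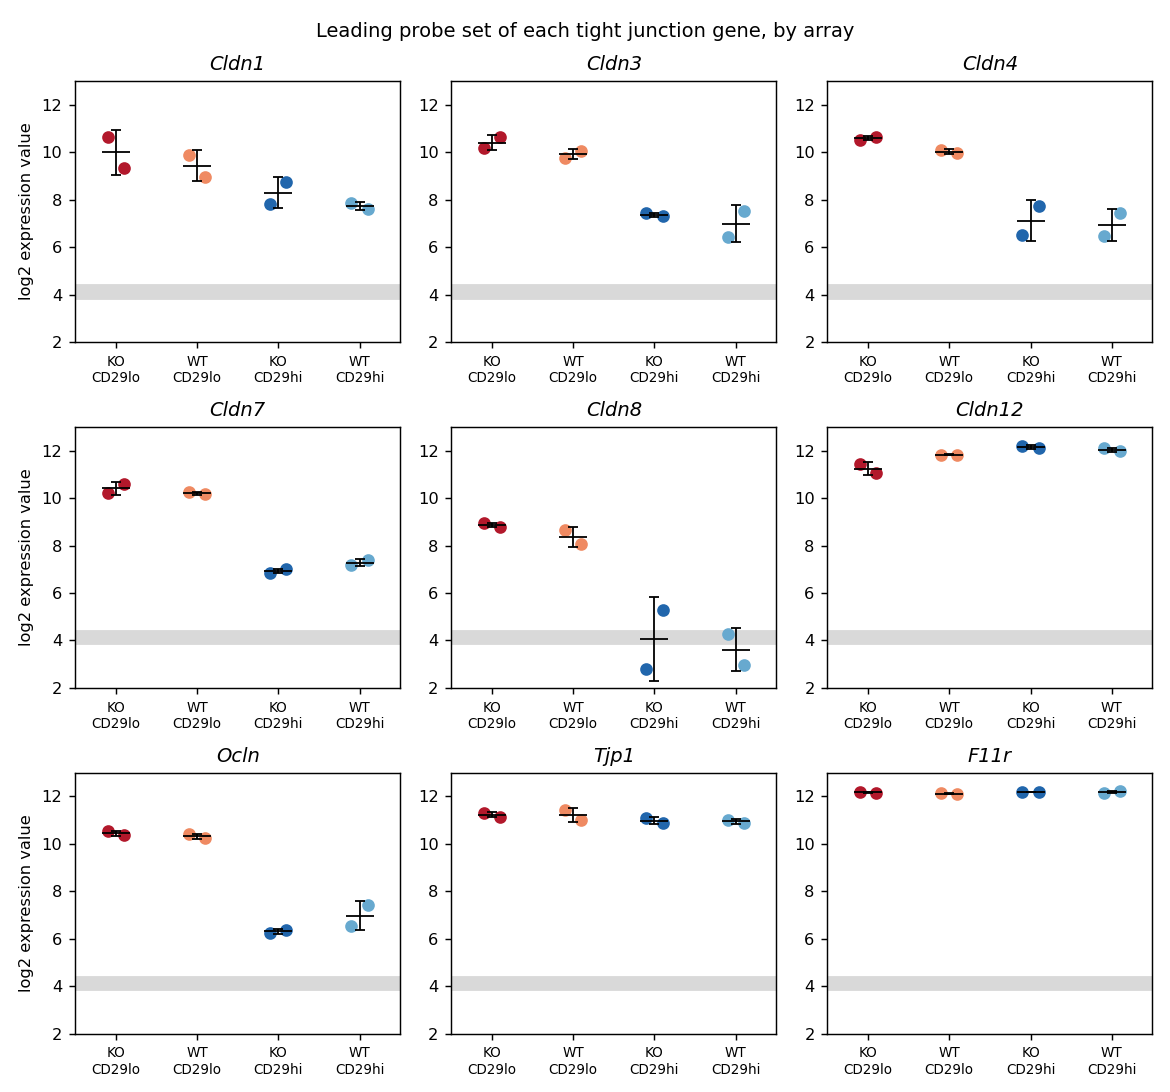
Log2 expression value (vertical axis) of the leading probe set of each gene in the 8 arrays, with KO CD29lo, WT CD29lo, KO CD29hi and WT CD29hi from left to right. Points are arrays, horizontal marks with bars are the mean ± SD (n = 2), and the grey band is the range of the array backgrounds (3.84 to 4.41); Cldn3, Cldn4, Cldn7, Cldn8 and Ocln lie high in both CD29lo groups and low in both CD29hi groups, while F11r is level.

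Among the claudins that seal the junction, Cldn4, which tightens epithelia to ions, measured 10.53 and 10.66 in KO CD29lo arrays and 10.10 and 9.95 in WT CD29lo arrays, against 6.50 and 7.73 in KO CD29hi arrays and 6.46 and 7.42 in WT CD29hi arrays. Every CD29lo array lay far above every CD29hi array. The averaged difference was 3.28 ± 0.316 (log2 ± SE), which is 9.73-fold (limma adjusted p = 0.000256). Cldn3, its close relative and neighbour, measured 10.18 and 10.63 in KO CD29lo arrays and 9.76 and 10.06 in WT CD29lo arrays, against 7.43 and 7.30 in KO CD29hi arrays and 6.45 and 7.54 in WT CD29hi arrays. The gates did not overlap here either. Its averaged difference was 2.98 ± 0.266 (7.88-fold, limma adjusted p = 0.000181).

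Cldn7, a claudin also found along the lateral membrane and known to bind EpCAM, had the tightest replicates of the risers. It measured 10.22 and 10.60 in KO CD29lo arrays and 10.25 and 10.15 in WT CD29lo arrays, against 6.86 and 6.99 in KO CD29hi arrays and 7.18 and 7.38 in WT CD29hi arrays. The gates were separated by several times the spread within any group. The averaged difference was 3.20 ± 0.177 (9.21-fold, limma adjusted p = 2.52e-05).

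Cldn8, best known from the distal nephron, had the largest log2 difference of the 9 genes, from the faintest CD29hi signal. It measured 8.94 and 8.80 in KO CD29lo arrays and 8.67 and 8.05 in WT CD29lo arrays, against 2.80 and 5.30 in KO CD29hi arrays and 4.26 and 2.97 in WT CD29hi arrays. In each CD29hi group 1 of the 2 arrays was at or below its background, so the size of the difference there is loosely set. The averaged difference was 4.78 ± 0.551 (limma adjusted p = 0.000605), and it was 4.28 with all values raised to the background of their array (limma adjusted p = 0.000137). It ran from 4.16 without replicate 1 of KO CD29hi to 5.41 without replicate 2 of KO CD29hi.

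Cldn1, without which the mouse epidermis loses its water barrier, rose less and varied more. It measured 10.66 and 9.32 in KO CD29lo arrays and 9.90 and 8.97 in WT CD29lo arrays, against 7.84 and 8.75 in KO CD29hi arrays and 7.86 and 7.61 in WT CD29hi arrays. The CD29lo arrays all lay above the CD29hi arrays, but replicates of KO CD29lo differed by more than 1 log2 unit. The averaged difference of 1.70 ± 0.361 passed the test (3.24-fold, limma adjusted p = 0.0116). Within a genotype it did not, with 1.70 in KO (limma adjusted p = 0.0619) and 1.70 in WT (limma adjusted p = 0.0856). The higher Cldn1 array of each CD29lo pair was also the one with the lower summed fibroblast level. The same order held in both pairs for Cldn8, Cldn12, Ocln, Tjp1 and F11r, so it is not particular to Cldn1. Cldn3 had the reverse order in both pairs, and Cldn4 and Cldn7 had a different order in KO and WT. The part of fibroblast RNA in the spread of Cldn1 was not tested.

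Cldn12, a claudin that lacks the PDZ-binding tail of most of the family, ran the other way. It measured 11.43 and 11.04 in KO CD29lo arrays and 11.83 and 11.80 in WT CD29lo arrays, against 12.20 and 12.09 in KO CD29hi arrays and 12.10 and 11.98 in WT CD29hi arrays. The KO CD29lo arrays were the lowest of all, and each CD29lo array lay below each CD29hi array. The averaged difference was -0.57 ± 0.0967 (limma adjusted p = 0.00422), or 1.48-fold lower in CD29lo. It was past the threshold in KO (-0.91 ± 0.137, limma adjusted p = 0.00413) but not in WT (-0.23, 95% confidence interval -0.54 to 0.09, limma adjusted p = 0.393). With a variance that does not depend on the mean, the KO and averaged calls of Cldn12 were lost (limma adjusted p = 0.0535 in KO and 0.0532 averaged).

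Ocln, the four-span membrane partner of the claudins, had the strongest p-value after Cldn7. It measured 10.52 and 10.37 in KO CD29lo arrays and 10.40 and 10.24 in WT CD29lo arrays, against 6.24 and 6.38 in KO CD29hi arrays and 6.54 and 7.41 in WT CD29hi arrays. The CD29lo arrays of both genotypes were nearly level, and all lay well above the CD29hi arrays. The averaged difference was 3.74 ± 0.228 (13.4-fold, limma adjusted p = 3.43e-05).

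F11r and Tjp1 showed no call between the gates. F11r measured 12.19 and 12.16 in KO CD29lo arrays and 12.14 and 12.10 in WT CD29lo arrays, against 12.20 and 12.19 in KO CD29hi arrays and 12.16 and 12.21 in WT CD29hi arrays. All 8 values lay within a narrow band, and the averaged difference had a 95% confidence interval from -0.17 to 0.09. Tjp1 measured 11.30 and 11.15 in KO CD29lo arrays and 11.41 and 11 in WT CD29lo arrays, against 11.08 and 10.88 in KO CD29hi arrays and 11.02 and 10.88 in WT CD29hi arrays. Its gates overlapped, and the averaged difference of 0.25 had an interval from -0.02 to 0.52 (limma adjusted p = 0.171). Both genes were above background in every array.

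Within a genotype, Cldn3, Cldn4, Cldn7, Cldn8 and Ocln were called higher in CD29lo in both. In KO mice that made 5 genes higher and 1 lower, beside 6.66% of all tested genes called higher and 7.41% called lower. In WT mice it made 5 higher and 0 lower, beside 4.23% and 3.96% of all tested genes. Cldn3, Cldn4, Cldn7 and Ocln differed between the gates by 3.04 to 4.14 in KO mice and by 2.92 to 3.35 in WT mice (log2). In KO, Cldn4 differed by 2.87 without replicate 1 and by 4.10 without replicate 2 of KO CD29hi. Cldn8 differed by 4.29 in KO and 4.26 in WT with values raised to the background, and without raising by 3.57 in KO without replicate 1 of KO CD29hi and 6.07 without replicate 2, and by 5.39 in WT without replicate 1 of WT CD29hi. The Cldn8 call in WT was lost without replicate 2 of WT CD29hi (4.10, limma adjusted p = 0.0693) and without replicate 1 of WT CD29lo (4.44, limma adjusted p = 0.0641). Cldn1 passed in KO without replicate 2 of KO CD29lo (2.37, limma adjusted p = 0.0248).

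**Figure D2:**
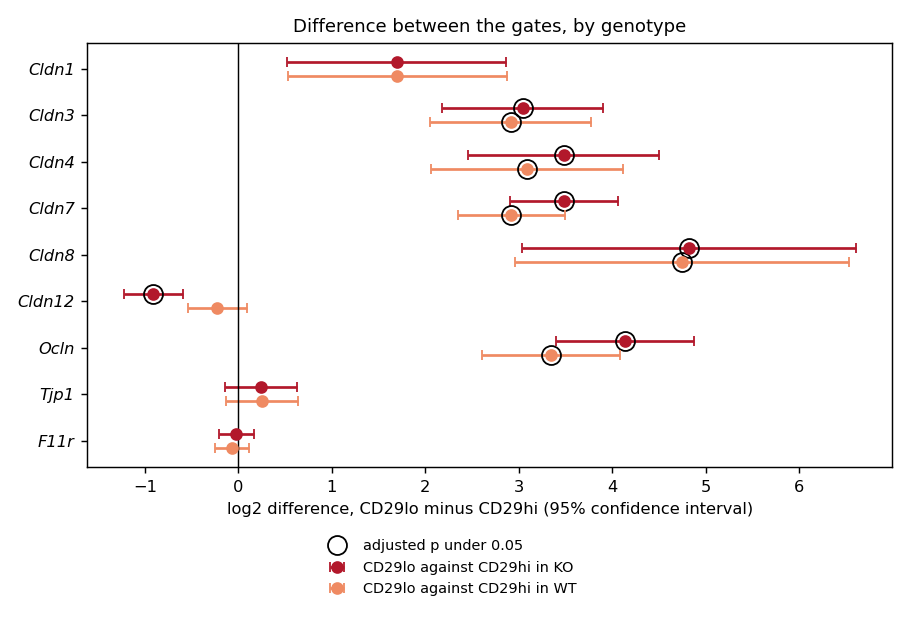
Log2 difference, CD29lo minus CD29hi (horizontal axis), of each gene in KO and in WT mice, with 95% confidence intervals from limma. Open rings mark adjusted p under 0.05; Cldn3, Cldn4, Cldn7, Cldn8 and Ocln are ringed on the right in both genotypes, Cldn12 on the left in KO alone, and whether that differs between genotypes is given by the interaction in the text.

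The second probe sets differed in the same direction for each called gene that has one. In a fit over all 33830 probe sets that passed the filter, the 4 probe sets of Cldn3 differed between the gates by 2.98, 2.26, 2.04 and 2.13 (limma adjusted p from 0.000173 to 0.0236). The 2 probe sets of Ocln differed by 3.74 and 3.20, those of Cldn1 by 1.70 and 1.63, and those of Cldn12 by -0.57 and -0.75, each with limma adjusted p under 0.05. The second Ocln probe set measured 9.72 and 9.64 in KO CD29lo arrays and 9.89 and 9.60 in WT CD29lo arrays, against 5.93 and 6.69 in KO CD29hi arrays and 6.45 and 7 in WT CD29hi arrays. The gates again did not overlap, but in CD29hi the genotypes now did. The second Cldn12 probe set measured 9.31 and 8.96 in KO CD29lo arrays and 9.81 and 9.64 in WT CD29lo arrays, against 10.30 and 10.19 in KO CD29hi arrays and 10.36 and 9.87 in WT CD29hi arrays, with the KO CD29lo arrays lowest once more. The second F11r probe set also passed no test. A further 2 Cldn1 probe sets were above background in 0 arrays and were not tested. The leading probe sets of Cldn3 and F11r carry the Affymetrix suffix x, which is given where some probes also match other sequences.

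**Figure D3:**
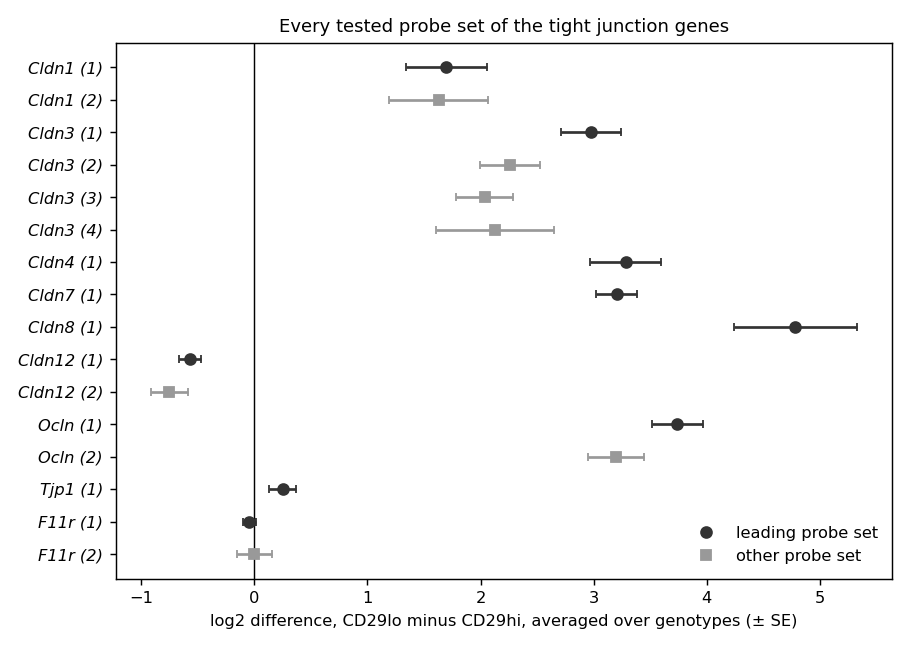
Log2 difference, CD29lo minus CD29hi, averaged over genotypes (horizontal axis, ± SE), for the 16 tested probe sets of the 9 genes, with circles for the leading and squares for the other probe sets of a gene. Each probe set of Cldn1, Cldn3 and Ocln lies right of 0 and both of Cldn12 lie left of it.

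Between the genotypes, none of the 9 genes passed the threshold in either gate. The counts of calls were 0 of 9 in CD29lo, 0 of 9 in CD29hi and 0 of 9 averaged over the gates (limma adjusted p under 0.05). Few genes of any kind were called in these comparisons: 0.0137% in CD29lo, 0.0137% in CD29hi and 0.0685% averaged. At an unadjusted p under 0.05 the counts were 1, 0 and 1, and the single gene was Cldn12 each time, beside 6.68%, 7.84% and 9.27% of all tested genes. The median log2 difference, KO minus WT, of the 9 genes was 0.21 in CD29lo and 0.11 in CD29hi, against -0.06 and -0.02 for all tested genes.

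Cldn12 was lower in KO CD29lo arrays (11.43 and 11.04) than in WT CD29lo arrays (11.83 and 11.80). Both KO arrays lay below both WT arrays, as they did for 19.6% of all tested genes. The difference was -0.58 ± 0.137 (95% confidence interval -0.89 to -0.27, limma adjusted p = 0.529), with an unadjusted limma value of 0.00261, and it ran from -0.78 to -0.39 when single arrays were left out. Its second probe set gave -0.59 (limma adjusted p = 0.733). In CD29hi the Cldn12 difference was 0.11 (95% confidence interval -0.21 to 0.42).

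None of the genes higher in the CD29lo gate was called between the genotypes. In CD29lo, both KO arrays lay above both WT arrays for Cldn3 (0.50), Cldn4 (0.57), Cldn8 (0.51) and F11r (0.06), beside 14.7% of all tested genes with that pattern, and limma adjusted p was 0.844 or more for each. Cldn1 (0.56), Cldn7 (0.21) and Ocln (0.13) overlapped there. The intervals are wide: the one for Cldn4 ran from -0.45 to 1.59 and the one for Cldn8 from -1.28 to 2.30.

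In CD29hi, both KO arrays lay below both WT arrays for Ocln (6.24 and 6.38 in KO, 6.54 and 7.41 in WT) and for Cldn7 (6.86 and 6.99 in KO, 7.18 and 7.38 in WT), beside 21.2% of all tested genes with that pattern. The Ocln difference was -0.67 ± 0.322 (95% confidence interval -1.40 to 0.07, limma adjusted p = 0.698), and the Cldn7 difference was -0.36 (limma adjusted p = 0.83). Cldn1 (0.56), Cldn3 (0.37), Cldn4 (0.18) and Cldn8 (0.44) were above 0 with overlapping arrays. For Tjp1 and F11r the KO minus WT difference was 0.03 and 0.01 in this gate.

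**Figure D4:**
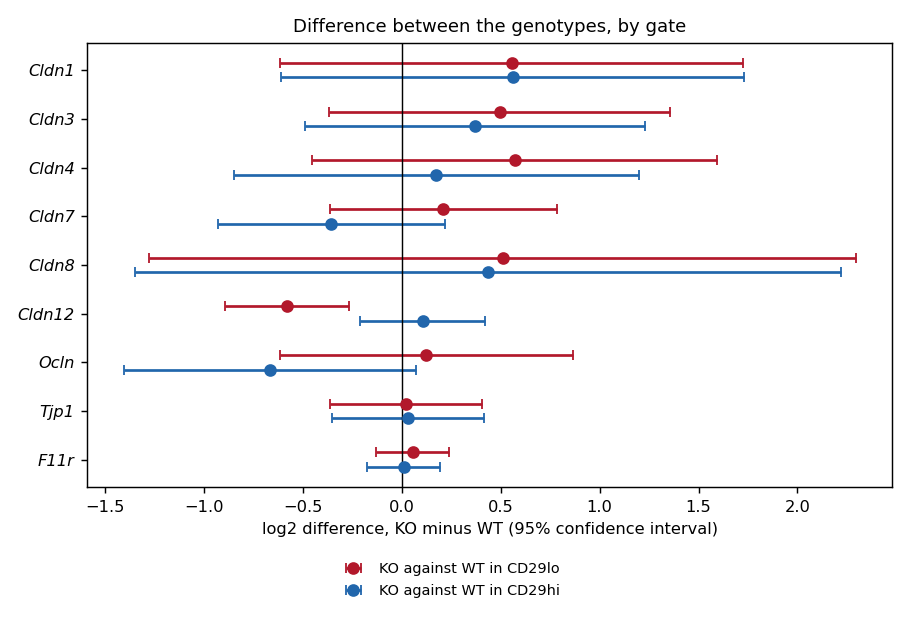
Log2 difference, KO minus WT (horizontal axis), of each gene in CD29lo and in CD29hi cells, with 95% confidence intervals from limma. No gene is past the threshold; the Cldn12 interval in CD29lo (-0.89 to -0.27) is the one that leaves out 0.

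Whether the gate difference itself depended on the genotype was tested as an interaction, the gate difference in KO minus that in WT. It was called for 0 of the 9 genes and for 0% of all tested genes, and 1 of the 9 had an unadjusted p under 0.05, beside 4.95% of all tested genes. That gene was Cldn12, whose interaction was -0.69 ± 0.193 (95% confidence interval -1.13 to -0.24, limma adjusted p = 0.961), with an unadjusted limma value of 0.00717. Ocln followed with 0.79 ± 0.456 and Cldn7 with 0.57 (limma adjusted p = 0.961 each). Both had a larger gate difference in KO mice, of 4.14 for Ocln and 3.49 for Cldn7, than in WT mice, of 3.35 and 2.92.

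Across the 8 arrays, the genes whose profiles lay closest to each called gene were found by the root mean square difference of log2 values centred on their own mean. Among 14597 other genes, Cldn7 lay closest to Nectin4 (0.163), Tjp3 (0.225) and Pgr (0.234), and Cldn4 to Phyh (0.153), Ptn (0.213) and Ttc6 (0.224). Cldn3 lay closest to Prss22 (0.237), Capn5 (0.258) and Ecm1 (0.264), and Ocln to Tmprss13 (0.255), Rab27b (0.267) and Faah (0.279). Cldn8 lay closest to Fgb (0.356), Piezo2 (0.443) and Pls1 (0.637), and Cldn1 to Ppl (0.328), Plppr4 (0.335) and Tfcp2l1 (0.343). Cldn12, whose range is narrow, lay closest to Usp5 (0.0702), Ppm1b (0.0848) and Cops7b (0.0900). Nectin4 and Tjp3 are themselves junction genes. Among Cldn3, Cldn4, Cldn7 and Ocln, the ranks of the others ran from 13 (Cldn7 for Ocln) to 100 (Ocln for Cldn3), and for Cldn8 the nearest of the 9 genes was Cldn4, at rank 66. Arrays of 1 gate share most of what sets these profiles, so the ranks describe the 8 arrays alone.

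**Figure D5:**
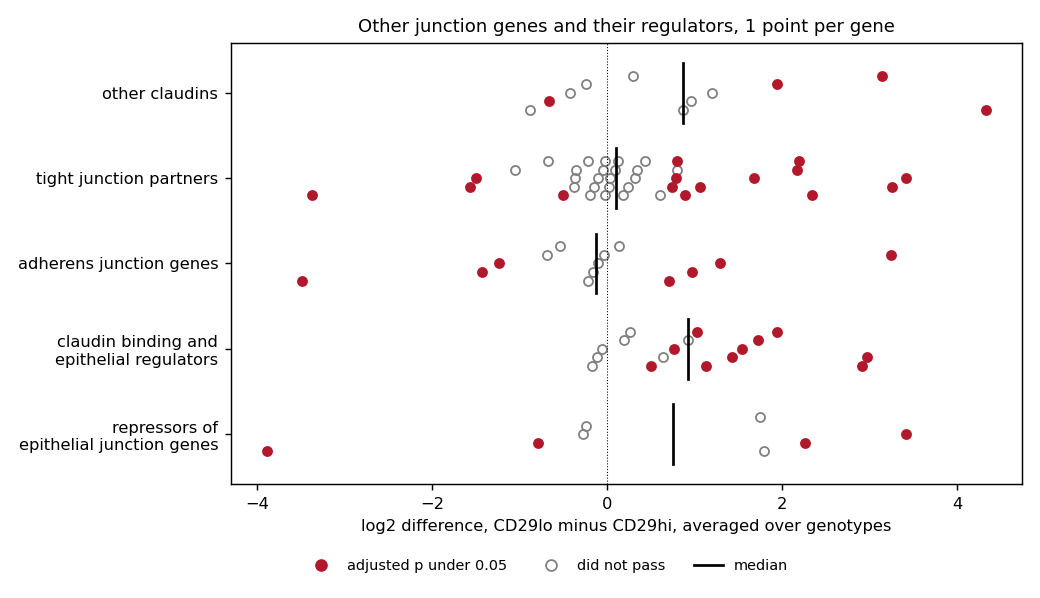
Log2 difference, CD29lo minus CD29hi, averaged over genotypes (horizontal axis), of each tested gene in 5 lists of other junction genes and regulators; filled points passed limma adjusted p under 0.05, open points did not, and bars are medians. The regulators list has its called genes on the right only, and the other lists have called genes on both sides.

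Of 20 other claudin family genes, 16 had a value, 11 were tested, 3 were higher and 1 was lower in CD29lo averaged over genotypes (limma adjusted p under 0.05), with a median of 0.86, beside 10.8% higher and 12.2% lower of all tested genes. Cldn10, which forms ion channels between cells, had group means of 8.21 in KO CD29lo and 8.13 in WT CD29lo, against 3.55 in KO CD29hi and 4.11 in WT CD29hi (limma adjusted p = 0.00271). In each CD29hi group 1 of its 2 arrays was at or below background, so its difference of 4.34 is loosely set, and it was 3.70 with values raised to the background (limma adjusted p = 0.000469). Without replicate 1 or replicate 2 of KO CD29hi it was 3.68 and 4.997, and without those of WT CD29hi 3.73 and 4.95. Cldn6, an early embryonic claudin, differed by 3.14 (limma adjusted p = 0.000691) and Cldn23 by 1.95 (limma adjusted p = 0.00215). Cldn23 passed in KO (2.73, limma adjusted p = 0.00408) but not in WT (1.16, limma adjusted p = 0.137). Its interaction was 1.57 (limma adjusted p = 0.961). Cldnd1, a claudin domain protein, was lower (-0.66, limma adjusted p = 0.0101), a call lost without replicate 1 of KO CD29hi (-0.60). Within a genotype it did not pass, in KO (limma adjusted p = 0.0508) or in WT (limma adjusted p = 0.0841).

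Of 38 tested tight junction partners, 11 were higher and 4 lower in CD29lo, with a median of 0.11, beside the 10.8% and 12.2% of all tested genes. Those higher included Marveld3, a relative of occludin (2.20, limma adjusted p = 9.58e-05), and Tjp3, a relative of ZO-1 (3.26, limma adjusted p = 9.85e-05). Those lower were the angiomotin relative Amotl1 (-1.50, limma adjusted p = 0.000125), the polarity gene Pard6g (-3.38, limma adjusted p = 0.000135), Mpdz (-1.57) and Pard3 (-0.51), the last 2 named after their values were seen.

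Adherens junction genes, which hold cells together below the tight junction, split 4 higher and 3 lower of 14, with a median of -0.13. Of all tested genes 10.8% were called higher and 12.2% lower. Nectin4 was higher in CD29lo (3.25, limma adjusted p = 3.39e-05), as was Cdh1, the epithelial cadherin (0.97, limma adjusted p = 0.000215). Nectin2 was also higher (1.29, limma adjusted p = 0.0057). It passed in KO (1.475, limma adjusted p = 0.0218) but not in WT (1.095, limma adjusted p = 0.0873). The Nectin2 interaction was 0.38 (limma adjusted p = 0.974). Cdh2, the neural cadherin, was lower (-3.50, limma adjusted p = 0.000334), and so were Nectin1 (-1.24) and Nectin3 (-1.44), both named after their values were seen.

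Of 17 tested claudin binding and epithelial regulators, 10 were higher and 0 lower, with a median of 0.93. Of all tested genes 10.8% were called higher and 12.2% lower. The 10 regulators included the transcription factors Grhl1 (1.54, limma adjusted p = 0.000189), Elf3 (1.94, limma adjusted p = 0.000797) and Ehf (2.98, limma adjusted p = 0.00262), and the protease inhibitor Spint1 (1.13, limma adjusted p = 0.000932). The Ehf difference was 2.39 without replicate 1 and 3.57 without replicate 2 of KO CD29hi. Ehf passed in KO (3.81, limma adjusted p = 0.0072) but not in WT (2.14, limma adjusted p = 0.0892). Its interaction of genotype and gate was not called (1.67 ± 0.919, limma adjusted p = 0.961), so no difference between the genotypes is shown. Elf5, which is in this list, is also a luminal marker.

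Of 8 tested repressors of epithelial junction genes, 2 were lower and 2 higher in CD29lo averaged over genotypes. The median was 0.76, with 4 of the 8 above 0. Of all tested genes 12.2% were called lower and 10.8% higher. Snai2, a repressor that binds the E-box CAGGTG, measured 7.88 in KO CD29lo and 7.98 in WT CD29lo (group means), against 11.80 in KO CD29hi and 11.85 in WT CD29hi, a difference of -3.89 (limma adjusted p = 0.00926). Within a genotype Snai2 did not pass, with -3.92 in KO (limma adjusted p = 0.0511) and -3.865 in WT (limma adjusted p = 0.0755). Tcf4 was also lower (-0.79, limma adjusted p = 0.0165). It passed in KO (-1.13, limma adjusted p = 0.0234) but not in WT (-0.445, limma adjusted p = 0.367). The Tcf4 interaction was -0.685 (limma adjusted p = 0.961). Zeb2 (2.26, limma adjusted p = 0.0338) and Twist2 (limma adjusted p = 0.0345) were called higher in CD29lo, the gate with more fibroblast RNA, and neither call was stable. Twist2 was at or below background in both arrays of each CD29hi group and in 1 KO CD29lo array, passed the filter through its CD29lo values, and differed by 2.34 with values raised to the background (limma adjusted p = 0.0466). Both were lost without replicate 2 of KO CD29lo, the KO CD29lo array with the higher fibroblast level (limma adjusted p = 0.0761 for Zeb2 and 0.0539 for Twist2), without replicate 2 of WT CD29lo, and without replicate 1 of KO CD29hi or either WT CD29hi replicate, and Twist2 also without replicate 2 of KO CD29hi (limma adjusted p up to 0.117 for Zeb2 and 0.103 for Twist2). Tcf4 lost its call without replicate 1 of KO CD29hi (limma adjusted p = 0.0740) and without replicate 2 of WT CD29hi (limma adjusted p = 0.0590), with the mean of its probe sets (-0.57, limma adjusted p = 0.0853) and with eBayes without a trend (limma adjusted p = 0.0504). Zeb2 and Twist2 were also lost with eBayes without a trend (limma adjusted p = 0.0750 and 0.0747). The Snai2 call was kept in 18 of 18 alternatives, with -2.89 without replicate 1 and -4.90 without replicate 2 of KO CD29lo. The part of fibroblast RNA in the values of these 3 genes was not tested.

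Averaged over the gates, KO against WT gave 0 calls in each of the 5 lists (limma adjusted p under 0.05). Of all tested genes only 0.0685% were called, so a count of 0 says little about the lists. The smallest p-values were those of Klf4, an epithelial transcription factor (0.65, limma adjusted p = 0.0871), and Pard6b (0.66, limma adjusted p = 0.358).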

How the data were processed

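Gene expression was measured on 8 Affymetrix arrays, 2 per group, and the number of arrays limits the precision. The deposited values are log2 expression values per probe set, read as log2 from their range. Array medians run from 5.45 to 5.67, and the authors' normalization is not given in the sources used here. Per the labels' protocols, RNA was isolated with a PicoPure kit and amplified with a NuGEN kit. Background per array was the 95th percentile of 27 bacterial control probe sets (3.84 to 4.41), which 64.74% to 71.16% of probe sets exceeded. Gene names come from a platform annotation of 2016: 34958 probe sets carry 1 gene, 932 several and 9211 none. Per gene the probe set with the highest mean was kept, and genes under the 25th percentile (3.51) were left out, so 14598 genes, the 9 described here included, were tested.

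All 8 arrays entered 1 limma 3.58.1 fit (R 4.3.3) of 4 groups with a variance trend, 4 residual and 4.31 prior degrees of freedom, two-sided tests and Benjamini-Hochberg adjustment over all genes. The fit was tested on simulated data. The members and lists were chosen with earlier results of these data known. All 9 members are named, and of each related list up to 4 genes with the smallest p between the gates, averaged over genotypes. Up to 2 genes per list were also picked between the genotypes. Of these, only Klf4 and Pard6b, with the smallest p, have their averaged genotype difference given. Alternatives were other filters, probe set rules, normalization, variance models, blocks and leaving out each array. Python 3.11.15 with matplotlib 3.10.9 drew the figures. Promoter letters were searched in windows from RefSeq.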

Additional observations from a re-analysis of the deposited data

How the results depend on the processing

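Of 1170 values of the 9 genes under alternatives, 1161 stayed on their side of the threshold, 4 lost the call, 5 gained one and 0 called values changed sign. Among values that passed in neither setting, 47 changed sign: 44 between the genotypes or in the interaction (KO against WT in CD29hi, Cldn1 was -0.11 with the mean of probe sets, and Cldn4 -0.44 and Cldn8 -0.82 without replicate 2 of KO CD29hi) and 3 between the gates, all of F11r. Averaged over genotypes, Cldn1, Cldn3, Cldn4, Cldn7, Cldn8 and Ocln were called in 18 of 18 settings, with the weakest limma adjusted p for Cldn1 (0.0496). The count of genes called lower in CD29lo was 0 in place of 1 with eBayes without a trend, in KO and averaged, where Cldn12 missed the threshold. Cldn8 in WT was lost in the 2 settings given above. Cldn1 in WT passed with only the arrays compared (limma adjusted p = 0.0408), without replicate 1 (0.0441) or replicate 2 (0.0403) of KO CD29lo, and, chosen after seeing the data, without replicate 1 of KO CD29lo and replicate 2 of WT CD29lo together (2.17, limma adjusted p = 0.0295). The causes were not tested. With single arrays left out, 6 genes were called higher averaged, 5 to 6 in KO and 4 to 6 in WT. Between genotypes and in the interaction, 0 of 666 values were called.

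Counts over all genes depended more on the settings. Averaged over genotypes 1570 genes were higher and 1775 lower in CD29lo, against 3005 and 3210 probe sets with every probe set tested, 1012 and 983 without replicate 1 of KO CD29hi, and 1152 lower without replicate 1 of WT CD29lo. In KO 972 were higher and 1081 lower (388 to 930 and 334 to 1034 with single arrays left out, 729 to 1863 and 673 to 1919 otherwise), and in WT 618 and 578 (246 to 705 and 214 to 678, and 409 to 982 and 376 to 1031). The upper ends of 1863 and 1919 in KO and 982 and 1031 in WT came with every probe set tested. They count probe sets among 33830, not genes among 14598. With the replicate block, the averaged counts were 6 higher and 1 lower of the 9 genes and 1722 higher and 1928 lower of all genes. Deviations of same-numbered arrays correlated by 0.00563 to 0.321 over the pairs of groups. Between the gates of 1 genotype the correlation was 0.0236 in KO and 0.0952 in WT. With 2 arrays per group these values cannot show whether arrays were paired. The labels do not tie the replicate numbers to the paired sets, so the numbers were not taken as pairs. Tests with only the arrays compared could not be made for averages and the interaction. Faint signal limits Cldn8 in CD29hi.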
